A study of Caenorhabditis elegans with 4 samples.

Results

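Isolated SEM-4 regions are short stretches of chromatin, called as bound by SEM-4 in L2 larvae of Caenorhabditis elegans, that stand alone on the chromosome. They were chosen from the combined list of called regions by 2 measured properties of that list. A region had to be narrower than 1000 bp, and the gap to the nearest other region on either side had to be more than 10000 bp. The rule found 1083 of the 7554 combined regions, or 14.3%. The 5945 other regions narrower than 1000 bp, here called the other narrow regions, have a neighbour within 10 kb, and 526 regions are 1000 bp or wider.

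The strain was OP57, grown as hermaphrodites at 20 °C. It carries the allele unc-119(ed3) and the transgene wgIs57, which holds unc-119 and sem-4 joined to TY1, EGFP and FLAG tags. All 4 samples share that genotype and stage: 2 ChIP libraries, in which chromatin bound by the GFP fusion was collected with anti-GFP antibodies, and 2 input libraries of total genomic DNA. The labels give 2% formaldehyde for all 4 samples. The transgene was built by recombineering and introduced by bombardment, so that SEM-4::EGFP is made from added copies of sem-4. The chromatin came from whole larvae, in which a region bound in few cells and a region bound weakly in many cannot be told apart. No label says whether replicates 1 and 2 were separate cultures, and agreement between them may be technical.

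The transcription factor SEM-4 binds DNA through zinc fingers and belongs with Spalt of Drosophila and the SALL proteins of vertebrates. In C. elegans it acts in the fate of neurons, vulval cells and mesodermal cells, and in some neurons it represses the genes mec-3 and egl-5, which specify other cell identities. ChIP followed by sequencing finds where such a factor lies on chromatin, without saying whether a nearby gene responds. No gene is assigned to any region here, since the only gene annotation used here is on a different genome build.

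The strength of a region is given as −log10 of the q-value that the authors' caller gave it, so that a higher value is a stronger call. Neither read counts nor enrichment ratios are in the lists, the sequencing depth is unknown, and a strong call may come from more enrichment or from more reads. A region is said to be called in a replicate when it shares at least 1 bp with a region of that replicate's list. Replicate 1 has 5386 regions and replicate 2 has 2527. The series has no ChIP libraries besides these 2, so the combined and replicate lists are not independent. A strong combined region is then likely to be called in the replicates, and such a call is no separate support. The q-values, widths and positions come from the same lists as the rule, and regions are not replicates, so the differences between isolated and other narrow regions are descriptions. No test was run over the 2 ChIP libraries. Ranges in parentheses after a share are 95% Wilson intervals and reflect only counting error.

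The strongest isolated regions were found in both replicates at closely matching positions. The strongest of all lay on X from 13700494 to 13701113 (WS220), 620 bp wide, with a −log10 q of 55.6 (q = 2.40e-56) and rank 58 in the whole combined list. Its −log10 q was 34.6 in replicate 1 and 23.9 in replicate 2, where it ranked 55 and 48. The midpoints of the 2 replicate regions were 21 bp apart, and its nearest combined neighbours lay 11.2 kb to the left and 25.7 kb to the right. This region was thus among the strongest calls of each library taken alone.

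The second, on III from 12250094 to 12250795, had a −log10 q of 52.9 in the combined list, 35.1 in replicate 1 (rank 54) and 25.8 in replicate 2 (rank 40). The replicate midpoints differed by 1.5 bp. The third, on X from 12362692 to 12363497, had values of 49.0, 36.0 and 17.3 in the same lists. A further region on III, from 4899204 to 4900137, was nearly equal in the replicates, with 26.0 in replicate 1 and 25.4 in replicate 2, whereas the midpoints lay 123.5 bp apart. No other region among the 10 strongest had replicate values so close to each other.

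The region on X from 16056060 to 16056833 had a −log10 q of 40.9, with 28.7 in replicate 1 and 11.5 in replicate 2. The strongest isolated region of chromosome I, from 4769356 to 4770265, had 40.1, with 24.96 in replicate 1 and 9.38 in replicate 2. Its left side was empty for 67.6 kb. In both regions replicate 2 had the lower value.

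Near the left end of X lay 2 strong isolated regions. One, from 1344723 to 1345484, had a −log10 q of 34.0, with 26.8 in replicate 1 and 10.5 in replicate 2. The other, from 1626809 to 1627476, had 38.5, with 29.7 in replicate 1 and 9.26 in replicate 2, and no combined region lay within 281.9 kb to its right. The remaining members of the 10 were on IV from 17249631 to 17250049 (35.8, with 22.4 in replicate 1 and 14.6 in replicate 2) and on V from 14055027 to 14055482 (35.5, with 25.1 and 12.8). These were also the narrowest of the 10, at 419 bp and 456 bp.

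Of the 10, 5 lay on X, and in all 10 the replicate 2 value was the lower. Their widths ran from 419 bp to 934 bp with a median of 732 bp, wide for isolated regions. They ranked from 52 to 122 in replicate 1 and from 40 to 266 in replicate 2. Chromosome II had its strongest isolated region from 13334943 to 13335754 (26.5 in the combined list, 14.2 in replicate 1 and 12.2 in replicate 2), the fifteenth of all. Its nearest neighbours were 41.2 kb and 109.6 kb away.

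**Figure D1:**
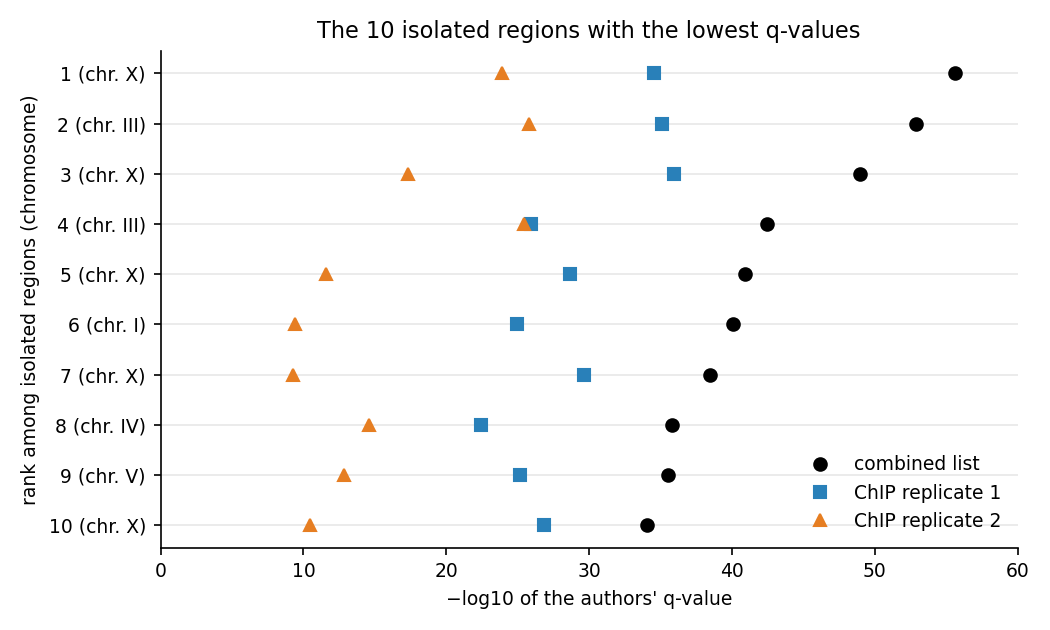
The 10 isolated regions with the lowest q-values, in order of rank, with their chromosome; points give −log10 of the authors' q-value in the combined list (circles), ChIP replicate 1 (squares) and ChIP replicate 2 (triangles). Replicate 2 lies below replicate 1 in all 10, and the closest pair of values is 26.0 and 25.4 for the fourth region.

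Most regions at the very top of the combined list were wide, so few narrow regions of either kind lay there. None of the 50 strongest regions was isolated, while 9 were other narrow regions and 41 were 1000 bp or wider. Among the 100 strongest, 4 were isolated, 19 were other narrow and 77 were wide, so that 17.4% of the narrow ones were isolated. Among the 500 strongest, 30 were isolated, 225 were other narrow and 245 were wide. Isolated regions made up 11.8% of the narrow regions in that top 500, compared with 15.4% of all narrow regions. A −log10 q above 10 was reached by 102 isolated regions, or 9.42%, and by 11.2% of the other narrow regions. Of those 102, every one was called in replicate 1 and 98 (96.1%) in replicate 2. The 666 other narrow regions above 10 were alike in this, with all in replicate 1 and 643 (96.5%) in replicate 2.

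As a group, isolated regions were called somewhat less strongly and were narrower. The median −log10 q was 3.45 for isolated regions (quartiles 2.60 and 5.44) and 3.76 for other narrow regions (2.67 and 6.12). The median width was 303 bp (218.5 and 405) for isolated regions and 349 bp (237 and 502) for other narrow regions. Of the isolated regions 14.8% were 500 bp or wider, compared with 25.4% of the other narrow regions. With the width limit at 500 bp, the difference in median −log10 q of −0.32 shrank to −0.02, and the difference in median width of −46 bp to −13 bp.

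The same rule applied to each replicate list alone gave differences of the same direction. In replicate 1 it chose 1114 regions, with a median −log10 q of 2.91 for isolated and 3.19 for other narrow regions and median widths of 298 bp and 337 bp. In replicate 2 it chose 863, with medians of 3.11 for isolated and 3.29 for other narrow regions and widths of 390 bp and 426 bp. Only 597 of the 1114 (53.6%) and 253 of the 863 (29.3%) overlapped a region isolated in the combined list. The replicate lists therefore repeat the comparison only partly on the same regions. Over the 2 replicates the difference, isolated minus other narrow, was −0.24 ± 0.07 for −log10 q and −37.5 ± 2.12 bp for width (mean ± SD, n = 2). Width was part of the rule, and 2 values give only a rough SD, so these values too are descriptions.

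Of the 1083 isolated regions, 210 were called in both replicates, or 19.4% (17.1 to 21.9), compared with 25.1% of the other narrow regions. Replicate 1 held 645 of them, or 59.6% (56.6 to 62.4), compared with 62.6% of the other narrow regions. Replicate 2 held 254, or 23.5% (21.0 to 26.1), compared with 29.3%. At least 1 replicate held 689, or 63.6% (60.7 to 66.4), compared with 66.9%. Neither replicate held 394, or 36.4% (33.6 to 39.3), compared with 33.1%. Over the whole list, support was therefore a little lower by each of these counts. It was not lower on every chromosome. Replicate 1 held 54.0% of isolated and 49.2% of other narrow regions on I, and 62.6% and 60.5% on V. On X it held 62.7% and 62.5%. On II, III and IV the isolated share in replicate 1 was the lower, with 52.0% and 65.7% on IV. Over the whole list, the intervals for the share in both and for the share in replicate 2 did not overlap those of the other narrow regions. These intervals reflect only counting error over regions, which are not replicates, so the lower support is a description. With the width limit at 500 bp, the difference in the share in both was −1.81 percentage points, with an interval from −4.22 to 0.84.

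Within bands of like width the shares in both replicates lay close together. Among regions from 200 bp to under 300 bp, 9.03% of 310 isolated regions were in both replicates (6.32 to 12.7) and 7.03% of 1195 other narrow regions (5.71 to 8.62). From 300 bp to under 400 bp the shares were 21.7% of 276 isolated regions (17.3 to 27.0) and 25.6% of 1312 other narrow regions (23.3 to 28.0). From 400 bp to under 500 bp the shares were 38.2% of 123 isolated regions (30.1 to 47.0) and 35.4% of 857 other narrow regions (32.2 to 38.6). From 500 bp to under 1000 bp they were 46.9% of 160 (39.3 to 54.6) and 50.4% of 1510 (47.9 to 52.9). Isolated regions had the higher share in 2 of these 4 bands and the lower in the other two, and the intervals overlapped in each. Among the 214 isolated regions under 200 bp, 0 were in both replicates, where the limit set by 3 counts is 1.40% and the Wilson upper limit 1.76%. The share was 0.56% of 1071 other narrow regions.

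Strength sorted the isolated regions much as it sorted the other narrow regions. All narrow regions were divided into 5 equal classes of combined −log10 q. Combined strength and replicate calls are not independent, so the rise of support with strength is largely built in. In the strongest class, above 6.91, 80.8% of 182 isolated regions were called in both replicates (74.4 to 85.8), and 85.2% of 1224 other narrow regions (83.1 to 87.1). In the next class, from 4.37 to 6.90, the shares were 30.0% of 200 (24.1 to 36.7) and 34.0% of 1205 (31.4 to 36.7). In the middle class they were 1.32% of 227 and 2.88% of 1179. In the weakest class neither replicate held 84.7% of 235 isolated regions (79.5 to 88.7) and 81.0% of 1171 other narrow regions (78.7 to 83.2). In the second weakest class these shares were 56.9% and 57.9%, and in the middle class 25.1% and 25.2%. In the class from 4.37 to 6.90 neither replicate held 2 of 200 isolated regions and 3.98% of 1205 other narrow regions. The intervals there, 0.27% to 3.57% and 3.02% to 5.24%, overlapped. In the strongest class neither replicate held 0 of 182 isolated and 0 of 1224 other narrow regions. For the isolated regions the limit set by 3 counts is 1.65% and the Wilson upper limit 2.07%.

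**Figure D2:**
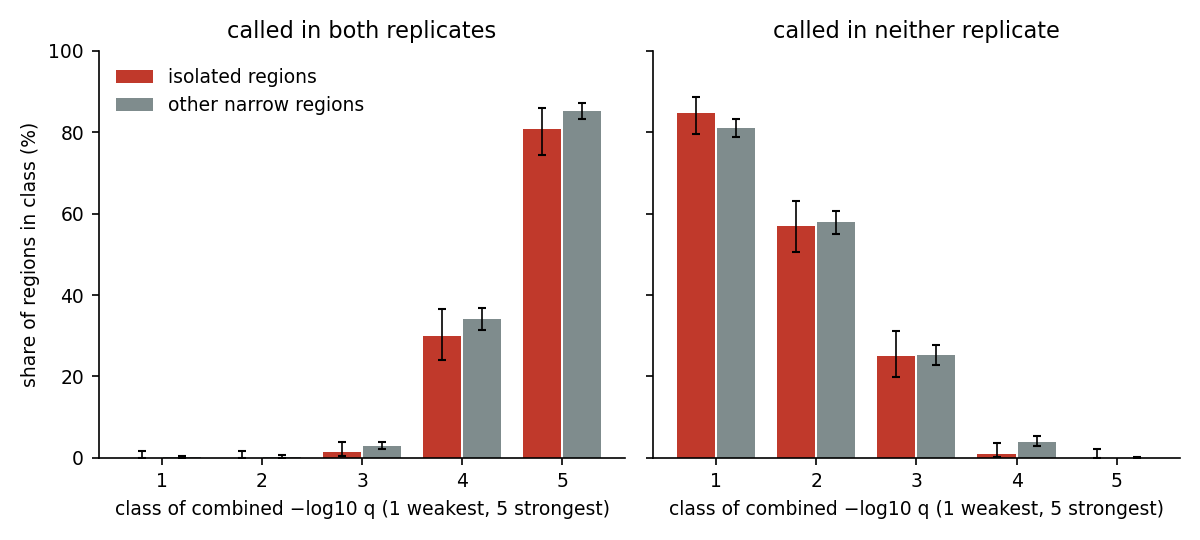
Share of narrow combined regions called in both replicates (left) and in neither (right), in percent, for 5 equal classes of combined −log10 q from weakest to strongest; red bars are isolated regions, grey bars the other narrow regions, and error bars are 95% Wilson intervals. In the strongest class 80.8% of isolated and 85.2% of other narrow regions were in both replicates.

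Width within a strength class differed most among strong calls. In the strongest class the median width was 455.5 bp for isolated and 550.5 bp for other narrow regions, a difference of −95 bp. In the class below it was 340.5 bp and 408 bp. In the other 3 classes the difference lay between −24 bp and −4.5 bp. Isolated regions were thus the narrower in all 5 classes, and in the strongest class of each replicate list by its own rule too, with 437.5 bp and 542 bp in replicate 1 and 521.5 bp and 586.5 bp in replicate 2.

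The 210 isolated regions found in both replicates were well placed. The midpoints of the replicate regions lay a median of 27.75 bp apart, and within 100 bp in 192 regions (91.4%). For the 1490 other narrow regions in both replicates, the median was 37 bp and 85.0% lay within 100 bp. No isolated region was split, since each one that was called in a replicate met a single region of that list. The rule favours this, because it leaves out regions with close neighbours. No such count was made for the other narrow regions. The value in replicate 2 was below that in replicate 1 in 175 of the 210, or 83.3% (77.7 to 87.8), and in 77.9% of the other narrow regions (75.7 to 79.9). The median of replicate 2 over replicate 1 was 0.70 for isolated and 0.72 for other narrow regions. Among the 210, the median −log10 q was 9.23 in the combined list, 5.12 in replicate 1 and 3.38 in replicate 2.

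**Figure D3:**
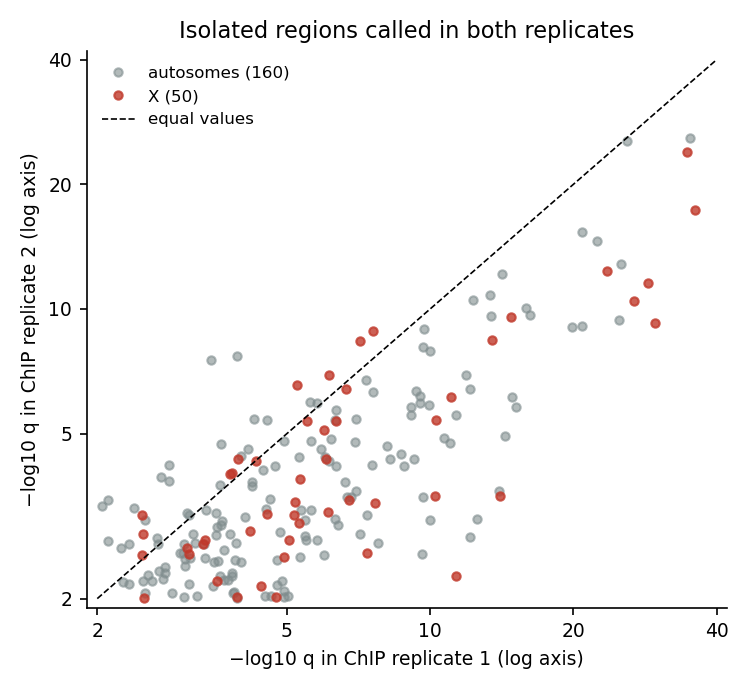
−log10 q in ChIP replicate 1 (x axis) and ChIP replicate 2 (y axis), both on log axes, for the 210 isolated regions called in both replicates; red points are the 50 on X, grey points the 160 on autosomes, and the dashed line marks equal values. Most points, 175 of 210, lie under the line.

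Regions that only 1 replicate held were of intermediate strength. The 435 in replicate 1 only had a median combined −log10 q of 3.77, and the 44 in replicate 2 only had 4.09. For the other narrow regions these medians were 3.93 and 3.92. The strongest in replicate 1 only was on IV from 410283 to 410979, with 12.0 in the combined list and 10.4 in replicate 1, where it ranked 476. The strongest in replicate 2 only was on I from 4253919 to 4254579, with 8.35 in the combined list and 3.38 in replicate 2. Both are wide for isolated regions, at 697 bp and 661 bp. These 2 regions were chosen for their support after the values were seen.

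The 394 isolated regions in neither replicate were weak, with a median −log10 q of 2.52 and a highest value of 4.55. The other narrow regions in neither replicate were weak too, with a median of 2.54 and a highest value of 6.71. The strongest such isolated region was on III from 7068654 to 7068812, and the next were on I from 289019 to 289373 (4.39) and from 182744 to 183132 (4.36). They ranked 3151, 3281 and 3322 in the combined list. Every isolated region that neither replicate held was therefore weaker than the median of those that both held. The same was true of the other narrow regions, where the median of those in both replicates was 9.05. The median width of isolated regions was 245.5 bp in neither replicate and 445.5 bp in both. For other narrow regions it was 264 bp and 504 bp.

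Isolation in the combined list mostly carried over to the replicate lists. Of the 645 isolated regions that replicate 1 held, 597 (92.6%) had no other replicate 1 region within 10 kb, with a median gap of 18053 bp. Of the 254 that replicate 2 held, 253 (99.6%) were isolated there, with a median gap of 26936 bp. Among the other narrow regions the shares were 10.9% in replicate 1 and 31.5% in replicate 2. Shorter lists leave wider gaps, so these shares depend on list length as well. The shares for isolated regions were also largely fixed in advance, because most replicate regions overlap a combined region. In the reverse direction, 53.6% of the regions isolated in replicate 1 and 29.3% of those in replicate 2 overlapped a combined isolated region. The regions that overlap nothing in the combined list are few, 385 in replicate 1 and 20 in replicate 2. Such a region lay within 10 kb of 90 isolated regions (8.31%), and 993 remained isolated when these were counted as neighbours.

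How far the nearest neighbour lay went with width, strength and support across all narrow regions. Regions with a neighbour within 500 bp had a median width of 402 bp and a median −log10 q of 4.03, and 28.6% were in both replicates. At gaps over 10000 bp and up to 20000 bp the width was 305 bp, the strength 3.50 and the share in both 21.1%. At over 20000 bp and up to 50000 bp they were 301 bp, 3.40 and 17.2%, and for the 44 regions with a gap over 50000 bp they were 288.5 bp, 3.23 and 11.4%. Between gaps of 2000 bp and 20000 bp strength and support hardly differed, at 3.47 to 3.53 and 21.1% to 21.4%. The limit of 10000 bp therefore does not mark a step in these values.

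**Figure D4:**
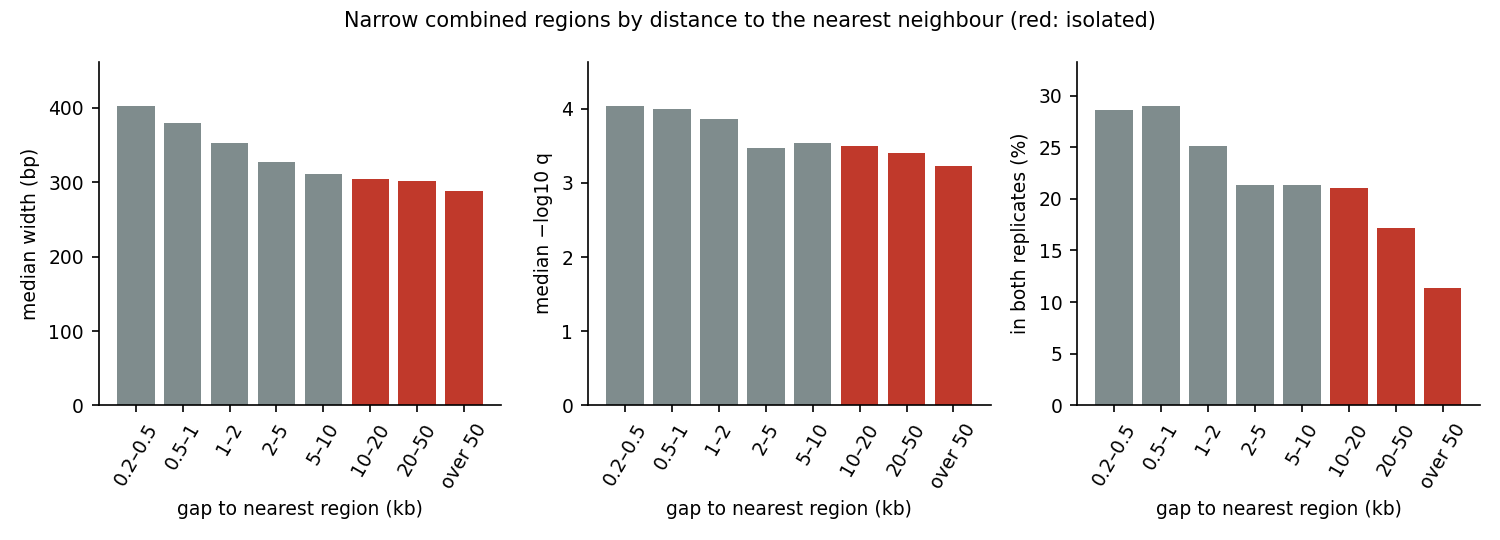
Median width in bp, median −log10 q and share called in both replicates in percent, for all narrow combined regions by the gap to the nearest combined region in kb; red bars are isolated regions, grey bars the other narrow regions. Width runs from 402 bp at the shortest gaps to 288.5 bp at gaps over 50 kb, and no step is seen at 10 kb.

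Regions near the limits of the rule had a wide range of strengths. Just inside the gap limit lay a pair on V, from 619091 to 619517 (−log10 q of 7.64) and from 629533 to 629620 (2.47), which are each other's neighbours at 10016 bp. Just outside it were regions on V from 20404111 to 20404258 (4.48, gap of 9992 bp) and on X from 2879575 to 2879976 (2.15, gap of 9990 bp). Just inside the width limit was a region of 987 bp on X from 4662275 to 4663261 (8.08), and just outside it a region of 1000 bp on X from 14525341 to 14526340. That last region, with a −log10 q of 124.9, 92.7 in replicate 1 and 43.2 in replicate 2, is far stronger than any isolated region and is kept out by 1 bp of width. Only 20 of the 526 wide regions (3.80%) had no neighbour within 10 kb, compared with 15.4% of the narrow ones.

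The most remote isolated region was on II from 1820026 to 1820281, with no combined region for 317.7 kb to the left or 367.5 kb to the right. Its −log10 q was 3.05 and neither replicate held it. The next lay on V from 17415056 to 17415200, with gaps of 178.4 kb and 313.6 kb. It was called in replicate 1 at 2.03, near the limit of that list, and had 2.37 in the combined list. A region on I from 12341768 to 12341844 (2.16, gaps of 134.9 kb and 145.0 kb) and one on V from 3073722 to 3073826 (2.00, gaps of 270.0 kb and 121.3 kb) were in neither replicate. Among the 5 most remote, the region on II from 3682774 to 3683134 was the strongest, with 8.09 in the combined list and 6.63 in replicate 1. None of the 5 was called in replicate 2, which held 23.5% of all isolated regions and 29.3% of the other narrow regions. A set of 5 is too small to set against these shares.

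Isolated regions were spread more evenly over the genome than the other narrow regions. X held 220 isolated regions, or 20.3% of them (18.0 to 22.8), compared with 13.0% of the other narrow regions and 17.7% of the span. With the width limit at 500 bp, X held 16.5% of isolated regions (14.2 to 19.0), below its share of the span, and 10.8% of other narrow regions (9.90 to 11.7). The other chromosomes held 195 (V), 189 (I), 173 (IV), 157 (II) and 149 (III). Per Mb this gave 12.5 on I, 12.4 on X, 10.8 on III, 10.3 on II, 9.90 on IV and 9.33 on V, while the density of all combined regions ran from 61.4 on V to 99.8 on III. Of the narrow regions of X 22.1% were isolated (19.7 to 24.8), compared with 11.5% on III (9.88 to 13.4) and 11.7% on IV (10.2 to 13.4). The rule itself picks sparse stretches, so these positions describe the choice.

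The same rule in each replicate list chose only partly the same regions. There X held 19.9% of isolated and 12.6% of other narrow regions in replicate 1, and 19.5% and 9.77% in replicate 2. The difference was 8.50 ± 1.68 percentage points (mean ± SD, n = 2). It too describes the choice, since the rule picks sparse stretches in each list. The contrast was widest among strong calls. In the strongest class X held 47 of 182 isolated regions, or 25.8% (20.0 to 32.6), compared with 9.48% of the other narrow regions (7.96 to 11.2). In the 4 weaker classes X held from 15.5% to 23.0% of isolated and from 11.3% to 16.2% of other narrow regions. The strongest class of each replicate list gave 25.6% of isolated and 10.8% of other narrow regions in replicate 1, and 22.8% and 6.82% in replicate 2.

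On X itself isolated regions resembled the other narrow regions more than on the autosomes in strength and in support. The median −log10 q was 3.31 for both isolated and other narrow regions of X, compared with 3.46 for isolated and 3.83 for other narrow regions of the autosomes. The share in both replicates was 22.7% of the isolated (17.7 to 28.7) and 21.8% of the other narrow regions of X, against 18.5% (16.1 to 21.3) and 25.5% on the autosomes. The median width was 395 bp for isolated and 425.5 bp for other narrow regions of X, against 289 bp and 335 bp on the autosomes, so that both kinds of region were wider on X. Whether X and the autosomes differ in these contrasts was not tested.

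Among the autosomes, IV had the lowest median strength for isolated regions, 3.25, compared with 3.85 for its other narrow regions. There 18.5% of isolated (13.4 to 24.9) and 29.2% of other narrow regions were in both replicates. Chromosome III had the highest median strength of all chromosomes for isolated regions, 4.06, and also for other narrow regions, 4.25. It likewise had the largest share in both replicates, 28.2% of isolated (21.6 to 35.9) and 32.8% of other narrow regions. Chromosome I had the smallest share in both, 10.1% of isolated (6.53 to 15.2) and 12.5% of other narrow regions, and replicate 2 held 11.1% of its isolated regions. The low support on I was thus seen in isolated and other narrow regions alike.

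Along the chromosomes, isolated regions were not concentrated in the middle. The central 50% of the chromosome spans held 49.5% of them (46.5 to 52.5), compared with 64.1% of the other narrow regions (62.9 to 65.3). In the 2 replicate lists, where the rule chose only partly the same regions, the difference was −13.1 ± 0.91 percentage points (mean ± SD, n = 2). The rule picks sparse stretches in each list, and the lists are not independent of the combined list. This difference therefore describes the choice and is no separate support. In the combined list the lower central share was seen on each autosome, from 52.9% and 60.9% on I to 50.8% and 74.5% on V for isolated and other narrow regions. On X the shares were 51.8% (45.2 to 58.3) and 50.0% (46.5 to 53.5). With each span cut into 4 equal parts, isolated regions made up 32.6% of the narrow regions in the rightmost part of V and 30.1% in the leftmost part of II, and 6.03% in the second part of IV. Strength was similar in both zones, with a median −log10 q of 3.49 in the centre and 3.40 in the ends for isolated regions. For the other narrow regions these medians were 3.82 and 3.66. In both replicates were 18.7% of isolated regions in the centre and 20.1% in the ends, and 26.1% and 23.2% of the other narrow regions. The share was thus lower in the centre for isolated regions and higher there for the other narrow regions. Whether the zones differ in support was not tested.

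**Figure D5:**
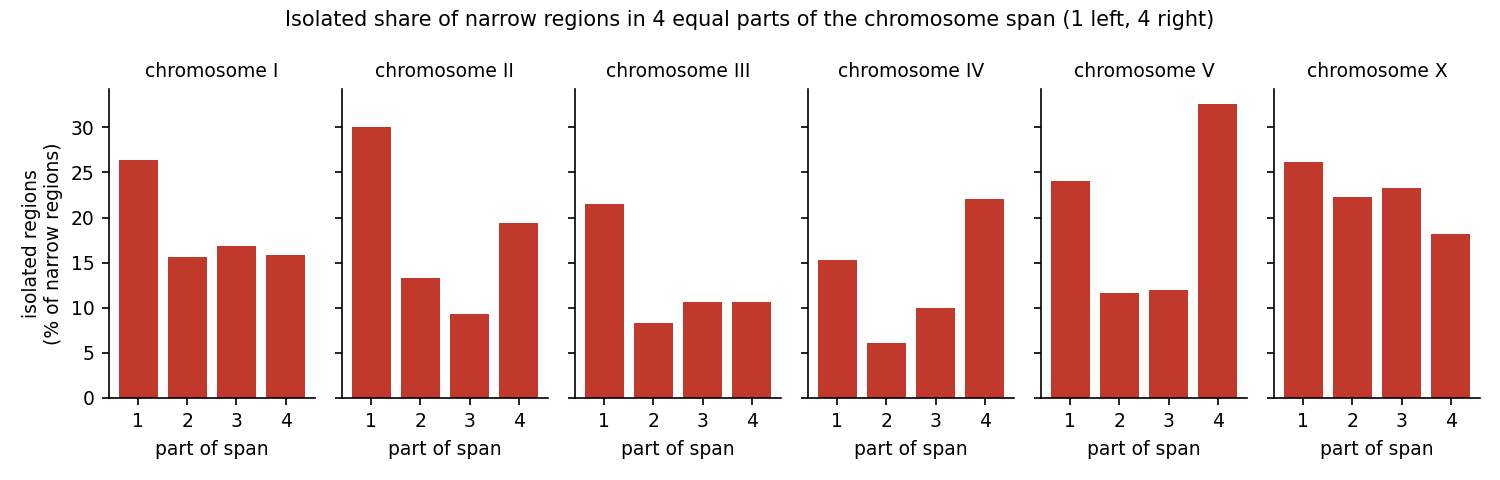
Isolated regions as a percentage of all narrow combined regions in 4 equal parts of the span of each chromosome, from the left end (1) to the right end (4). The leftmost part stands above both middle parts on every chromosome, the rightmost part of V is highest at 32.6%, and X runs from 26.2% in its leftmost part to 18.1% in its rightmost.

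Isolated regions often followed one another, which follows in part from the rule. The region next to an isolated region already has a gap of more than 10 kb on that side. No comparison share was computed for how often isolated regions follow one another. They formed 629 runs with no other combined region between, of which 388 were single regions, and 695 isolated regions (64.2%) had another isolated region next to them. The longest run, of 10, covered 814.7 kb of V from 17106991 to 17921734. In that run 2 regions were called in both replicates and 1 in neither, and −log10 q reached 10.3. Of all isolated regions of V, 17.9% were in both and 33.8% in neither, and of its other narrow regions 24.9% and 35.4%. Runs of 8 lay on I from 11220163 to 11461438, with 0 regions in both replicates, and on III from 2151502 to 2472294, with 2. On III −log10 q reached 16.5. In both replicates were 10.1% of isolated and 12.5% of other narrow regions of I, and 28.2% and 32.8% of III. The runs are too short to set against these shares. Of the 5 runs of 7, 4 lay on X. The run there from 1167322 to 1345484 ends in one of the 10 strongest isolated regions.

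Gaps of more than 10 kb numbered 2622 between combined regions and spanned 82.2 Mb of the 100.2 Mb in all. Of these gaps, 454 had an isolated region at both ends, 1256 at 1 end and 912 at neither. For 3.51% of isolated regions the nearest combined region was 1000 bp or wider, compared with 7.43% of the other narrow regions. Isolated regions together covered 354.8 kb, or 9.97% of the bases in the combined list.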

How the data were processed

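The authors deposited 3 lists of regions, 1 for each ChIP library and 1 combined list. Per the file headers, they are PeakSeq calls on WormBase WS220, and comment lines say that coordinates were lifted over from another build. The 5 combined regions so changed include no isolated region. Each deposited region has a q-value, which is a p-value corrected by the authors' caller. The sources used here give no aligner, version, control, filter or way of combining replicates. Depth is unknown. The inputs enter only through the authors' calls.

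Gaps, overlaps and classes were computed in Python 3.11.15 with pandas 2.3.3, numpy 2.4.6 and scipy 1.17.1, and plotted with matplotlib 3.10.9. A gap is the next start minus the own end. The 2 isolated regions at a list's end on their chromosome have a neighbour on 1 side only. Bedtools 2.31.1 gave the same number of isolated regions (1083) and of overlaps with replicate 1 (645) and replicate 2 (254). In simulated data all 300 planted isolated regions and 463 planted overlaps among 1500 regions were recovered. A chromosome's span runs from position 1 to the last end in any list. Strength classes divide all 7028 narrow regions equally. Where several replicate regions overlap, the lowest q-value is used.

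No test was run over regions. Members, lists and comparisons were chosen with earlier results of these data known. Regions named are the 10 isolated regions with the lowest q-values, the 3 lowest in neither replicate, the 5 with the largest gaps, those at the limits of the rule and the strongest on each chromosome. The strongest in 1 replicate only were added. Alternatives were other limits on gap (5000 and 20000 bp) and width (500 bp or none), the top 50% by q-value, other overlap rules, neighbours from the replicate lists, each replicate list alone, removal of chromosome I and, added after seeing the data, removal of regions under 50 bp.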

Additional observations from a re-analysis of the deposited data

How the results depend on the processing

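Of 65 values under alternatives, 45 stayed within 1.5 times the count or within the 95% interval of the value given above, 20 moved outside it and none changed sign. The number of isolated regions was 1942 with a gap limit of 5000 bp and 399 with 20000 bp, and 863 to 1114 in a single replicate list. With the gap limit at 5000 bp, 54.8% lay in the central 50%. At 20000 bp, 16.5% were in both replicates, 39.8% were central and 23.6% lay on X. With the width limit at 500 bp, 14.6% were in both replicates and 39.9% in neither, the difference from other narrow regions was −1.81 percentage points in the share in both, −0.022 in median −log10 q and −13 bp in median width, and 16.5% lay on X. When only the stronger 50% of the combined regions entered the rule, 48.7% had support from both replicates and 3.40% from neither, the width difference was −59 bp and 53.3% were central. Without chromosome I, 24.6% lay on X, and with 50% reciprocal overlap 39.98% were in neither replicate. With 1 replicate list left out, the share called in the other was 23.5% to 59.6%. Removing regions under 50 bp moved no value outside its interval. No paired analysis was possible because the inputs have no list of their own here. Depth is unknown, so a region not called in a replicate is not shown to be unbound.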

Other observations

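Very short regions occurred among the isolated regions. Under 50 bp wide were 63 isolated regions (5.82%) and 4.29% of the other narrow regions, and 4 isolated regions spanned a single base pair. Neither replicate held 43 of the 63 isolated regions (68.3%, 56.0 to 78.4) and 171 of the 255 other narrow regions of that width (67.1%, 61.1 to 72.5). Their highest −log10 q was 4.80 for isolated and 5.31 for other narrow regions. The smallest gap between any 2 combined regions was 201 bp.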
